A study of Anguilla anguilla with 6 samples.

Results

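Connexins, claudins, occludin, zonula occludens (ZO) proteins and junctional adhesion molecules (JAMs) build the gap junctions and tight junctions between cells, and their transcripts were followed in the ovaries of European eels (Anguilla anguilla). The members were all gene models whose description in the authors' deposited table names a gap junction, claudin, occludin, tight junction protein or junctional adhesion molecule, 111 of 45974 models. They comprise 42 connexin models, 42 claudin models, 2 models of a claudin domain-containing protein, 4 occludin models, 16 ZO models and 5 JAM models. All 6 eels came from a commercial farm and received gonadotropins, which stimulate the growing ovary, in 4 weekly injections; 4 are labelled responders and 2 non-responders, and the labels do not say what defines a response. Strain and age are not given, there was no untreated eel, and each library pooled pieces from the front, middle and rear of 1 animal's gonad.

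Gap junctions are clusters of channels, each built from connexin subunits of both neighbouring cells, through which small molecules and ions pass directly. In the ovarian follicle they join granulosa cells to one another and to the oocyte. Tight junctions seal the space between cells. Claudins form their strands, occludin and JAMs lie in the same membrane contacts, and ZO proteins tie them to the actin skeleton from inside the cell.

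Expression is the authors' mean per group of scaled counts, that is, read counts divided by a size factor for each library. The group each mean stands for was taken from its weight in the overall mean, since the columns carry only the letters A and B. Values per library were not used here, so no level carries an SD and the overlap of the groups is not given. The p-values are those of the authors' deposited table, whose name credits DESeq. Nothing says whether these animals shared a tank or a processing day. The smallest means above 0 were 0.47 in non-responders and 0.21 in responders, which sets how low a mean can be read. Of 17 oocyte marker models, 16 averaged 1000 scaled counts or more, so the labelled tissue showed its defining transcripts.

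No junction member differed between responders and non-responders at an adjusted p under 0.05. An adjusted p under 0.05 was given to 0 of 81 members with a p in the authors' deposited table, against 0.183% of all 37072 models with a p. At an unadjusted p under 0.05 there were 3 of 81 members (3.70%), against 3.67% of all models, so the share of members was at the background. They were a connexin and a JAM that were lower in responders and a claudin that was higher; over all models 2.07% were higher and 1.59% lower at that level. Among members with a mean of 5 or more, 2 of 39 had such a p (5.13%), against 5.61% of all such models. The adjusted p was 1 for 80 of the 81 members. In whole pieces of ovary, fewer cells of a type and less RNA per cell cannot be told apart.

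Most connexin and claudin models were listed at 0 or at a mean under 5, whereas every model of the other families was detected. A mean of 0 in both groups was listed for 30 of the 111 members (27.0%), 17 of them connexins and 13 claudins. The share was 19.4% of all models and 11.2% of models with a protein match. A mean of at least 5 was reached by 7 of 42 connexins (16.7%), 13 of 42 claudins (31.0%) and 17 of 25 models of occludin, ZO and JAM (68%). The share was 50.6% over all models and 58.0% over models with a protein match. All 7 models of the delta connexins, which include the neuronal connexin-36 type (cxd2), were listed at 0 in both groups. So were both models of cxa8, a lens connexin in mammals, the only model of cxb2 (connexin-26) and both models of cld6. Models under 500 bases made up 21.6% of members and 41.3% of all models.

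**Figure D1:**
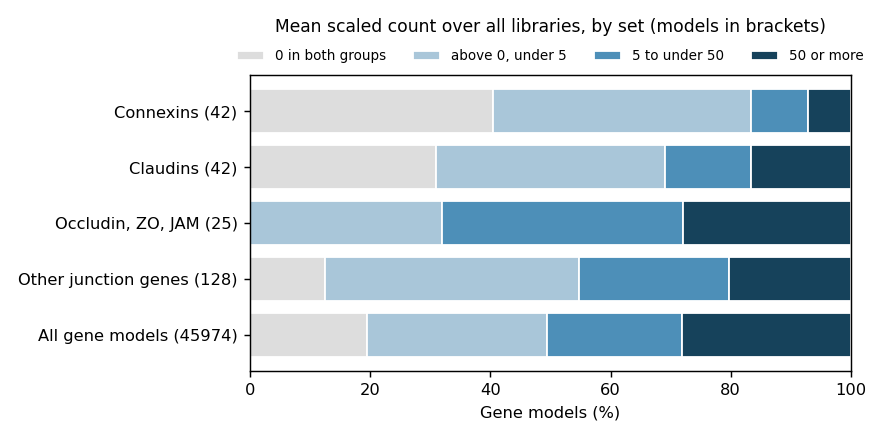
Share of gene models (%, x axis) by mean scaled count over all 6 libraries, for connexins, claudins, the other tight junction members, other junction genes and all gene models (number of models in brackets). Connexins have the largest share at 0 of the 5 sets shown, 40.5%, and occludin, ZO and JAM together have none at 0.

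A single claudin model outweighed all other members together. The model cldy (g5749), whose best match is zebrafish claudin-like protein zf-a89, also called claudin d, had 43834 scaled counts across non-responders against 36193 across responders. Among the 45974 models it ranked 20 by mean and 10 by mean per length. Its log2 ratio of responders to non-responders was -0.28 (p = 0.354, adjusted p = 1 in the authors' deposited table). Per 1000 bases of its longest transcript its level was 48705 scaled counts across non-responders against 40214 across responders, 62.2 and 52.3 times that of the next claudin, cld7a (g21141). It held 93.4% of the summed per-length levels of all members in non-responders and 92.7% in responders, and 97.3% and 96.6% of those of the claudins. Without it, the members summed to 6347 scaled counts across non-responders against 5725 across responders.

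The other claudins were spread over a wide range of levels. Claudin-7-a (cld7a, g21141) had 1584 and 1556 scaled counts in non-responders and responders, almost the same mean in both (log2 -0.026, p = 0.797 in the authors' deposited table; 0.085 with both groups rescaled to equal sums). Claudin-4 (cld4, g4015), an epithelial claudin in mammals, had 403 and 370 (log2 -0.12). A second model of cldy (g5750) had 169 and 254 (log2 0.59, p = 0.363 in the authors' deposited table). Claudin-19 (cld19) had 3 models, all below 80 scaled counts. The model g25349 had 78.5 against 66.7 (log2 -0.24), g23283 had 51.2 against 70.6 (log2 0.46), and the 262-base model g32033 had 1.09 against 1.84 (log2 0.75). They lay on both sides of a ratio of 1, none with a p under 0.05.

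Of the claudins with a mean of 5 or more, claudin-12 (cld12, g4228) had the smallest p, at 14.4 scaled counts across non-responders against 27.0 across responders (log2 0.91, p = 0.180 in the authors' deposited table). Claudin-17 (cld17, g18090), a pore-forming claudin in mammals, was listed at 0 in non-responders and had 4.88 scaled counts in responders (p = 0.0313, adjusted p = 1 in the authors' deposited table). Claudin-7 (cld7, g14201) was likewise listed at 0 in non-responders, with 2.78 in responders, but its p in the authors' deposited table was 0.699. The 13 claudins with a mean of 5 or more had a median log2 of 0.30 (interquartile range -0.24 to 0.46), with 7 above and 6 below a ratio of 1. That lean rests on the minimum and on counting each model, since the median was -0.026 over the 21 claudins detected in both groups and 0.033 over 8 claudin names. All models with a mean of 5 or more had a median of 0.0066.

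The 2 models of claudin domain-containing protein 1 (cldn1 in the table, not claudin-1), a distant relative of the claudins, both leaned higher in responders. The more abundant, g20537, had 200.3 scaled counts across non-responders against 285 across responders (log2 0.51, p = 0.197 in the authors' deposited table). The model g20275 had 37.9 and 45.4 (log2 0.26).

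**Figure D2:**
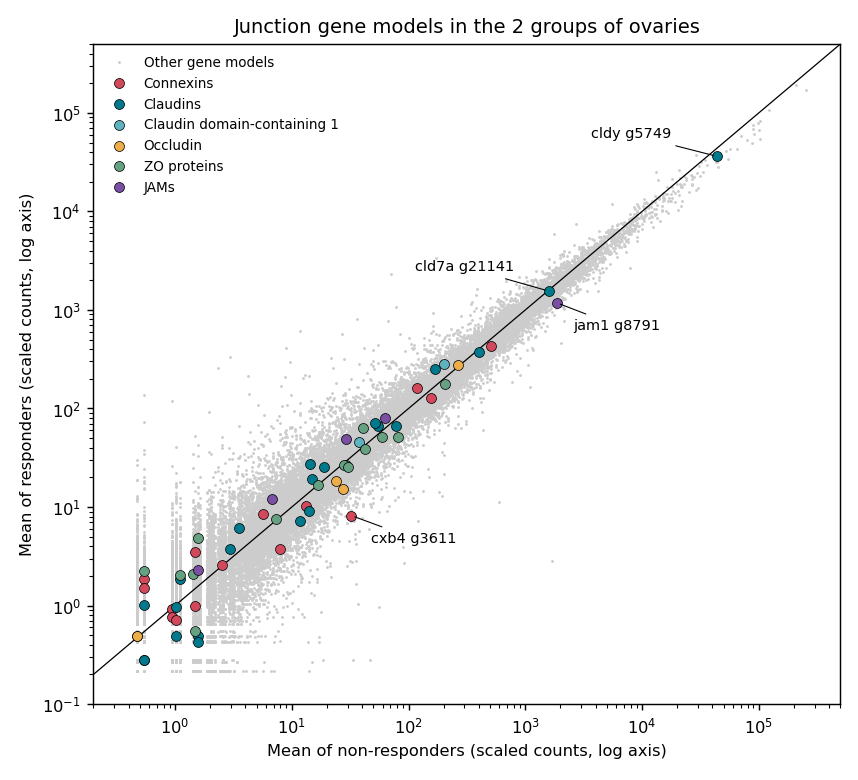
Mean scaled count of non-responders (x axis, log) against that of responders (y axis, log) for every gene model above 0 in both groups, with members coloured by family and other models grey; the line marks equal means. The claudin cldy (g5749) stands apart at the top, and cxb4 (g3611), at 32.4 against 8.18, is the member with a mean of 5 or more that lies farthest from the line.

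Connexin transcripts came mainly from 3 models, which held 88% of the summed per-length connexin levels in non-responders and 90.3% in responders. The gamma-1 connexin cxg1 (g14671), of the connexin-45 type, had 504 scaled counts across non-responders against 428 across responders (log2 -0.24). The model cx33 (g20584), whose best match is an ovarian connexin of Atlantic croaker, had 118 and 162 (log2 0.45, p = 0.237 in the authors' deposited table). The alpha-3 connexin cxa3 (g5778), known as connexin-46 and from the lens in mammals, had 155 and 129 (log2 -0.26). Per 1000 bases the non-responder level was 164 for cxg1, 77.9 for cx33 and 76.4 for cxa3, so the last pair were nearly equal; in responders the levels were 139, 106 and 63.6.

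The beta-4 connexin cxb4 (g3611), a skin connexin in mammals, had the smallest p of all members. Its mean was 32.4 scaled counts across non-responders against 8.18 across responders (log2 -1.99, p = 0.0030, with an adjusted p = 0.430 in the authors' deposited table). Further models of that name did not share this: g20719 had 5.63 and 8.53 (log2 0.60), g17396 had 0.55 and 1.88, and g4801 was listed at 0 in non-responders with 3.36 in responders. Summed over the 4 models, cxb4 had 38.6 and 22.0 scaled counts (log2 -0.81).

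Connexin-43 (cxa1, g1994), the main connexin between granulosa cells in mammals, stood at 4.67 and 3.62 per 1000 bases in the 2 groups, with 13.2 scaled counts across non-responders against 10.3 across responders (log2 -0.37, p = 0.543 in the authors' deposited table), and its other model (g19722) was at 0. Of the granulosa cell markers, FSHR (g10501) had 3.45 and 5.85 scaled counts (log2 0.76). Only 1 of 9 granulosa models reached a mean of 50, FOXL2 (g429), at 143 and 191 (log2 0.42). The CYP19A1 models g9348 and g9349 leaned lower in responders (log2 -0.95 and -0.20). Of the 6 granulosa models with a mean of 5 or more, 4 lay above and 2 below a ratio of 1. The beta-1 connexin cxb1 (g5777), known as connexin-32, had 7.99 and 3.76 (log2 -1.09, p = 0.234 in the authors' deposited table). The model cx32 (g20585), which matches another ovarian connexin of Atlantic croaker, had 3.30 in non-responders and was listed at 0 in responders (p = 0.115 in the authors' deposited table). The 7 connexins with a mean of 5 or more had a median log2 of -0.26 (interquartile range -0.73 to 0.11), 2 above and 5 below a ratio of 1, and -0.15 with both groups rescaled to equal sums.

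**Figure D3:**
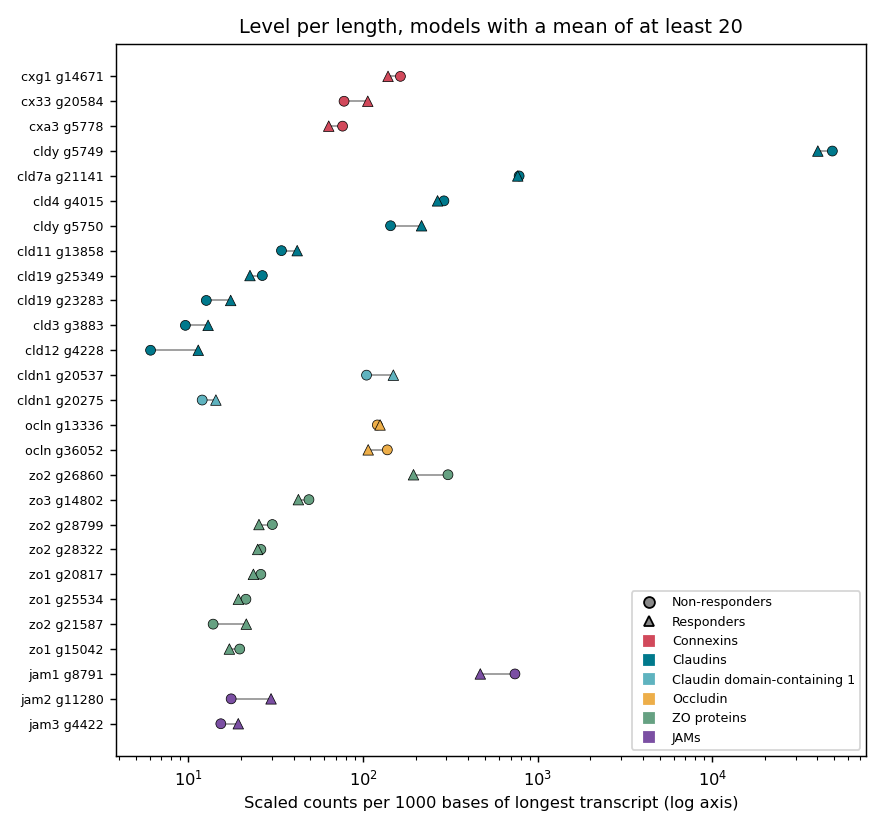
Level of each member with a mean of 20 or more, as scaled counts per 1000 bases of the longest transcript (x axis, log), in non-responders (circles) and responders (triangles), coloured by family. The claudin cldy (g5749) lies above all others, followed by cld7a (g21141) and jam1 (g8791).

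JAM-A, an adhesion molecule of epithelia and endothelia, had the highest level per length among members after the claudins cldy (g5749) and cld7a (g21141). Its model jam1 (g8791) had 1864 scaled counts across non-responders against 1181 across responders (log2 -0.66, p = 0.0420, adjusted p = 1 in the authors' deposited table). Per 1000 bases it stood at 741 and 469, which was 94.7% and 88.2% of the summed JAM levels. JAM-B and JAM-C, which bind each other across cell contacts in mammals, lay on the other side of a ratio of 1. JAM-B (jam2, g11280) had 28.9 and 48.9 (log2 0.76, p = 0.363 in the authors' deposited table). JAM-C (jam3) had 63.2 and 79.6 in g4422 (log2 0.33), 6.73 and 12.05 in g8038 (log2 0.84) and 1.56 and 2.28 in the short model g36733. The JAM family sum, set by jam1, had a log2 of -0.57.

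Occludin, a membrane protein of the tight junction, stood at nearly the same mean in both groups. Its main model (ocln, g13336) had 266 scaled counts across non-responders against 276 across responders (log2 0.051, p = 0.926 in the authors' deposited table). Model g1866 had 27.7 and 15.4 (log2 -0.85, p = 0.119 in the authors' deposited table), the 172-base model g36052 had 23.7 and 18.4 (log2 -0.36), and g11102 had 0.47 and 0.49.

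The ZO scaffolds were similarly close. ZO-3 (zo3, g14802) had 205 and 178 scaled counts (log2 -0.20). ZO-1 had 7 models that summed to 158 in non-responders and 143 in responders (log2 -0.14). The highest were g15042 at 58.7 and 51.2, g25534 at 42.7 and 38.7 and g20817 at 29.3 and 26.5. ZO-2 had 7 named models as well, with sums of 183 and 176 (log2 -0.060). Its models leaned apart: the 265-base model g26860 had 81.2 and 51.6 (log2 -0.66, p = 0.117 in the authors' deposited table) and the 2925-base model g21587 had 40.5 and 62.8 (log2 0.63, p = 0.175). Over occludin, ZO and JAM, 17 models with a mean of 5 or more had a median log2 of -0.14 (interquartile range -0.25 to 0.051), 6 above and 11 below a ratio of 1; the median was 0.018 over the 24 models detected in both groups.

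**Figure D4:**
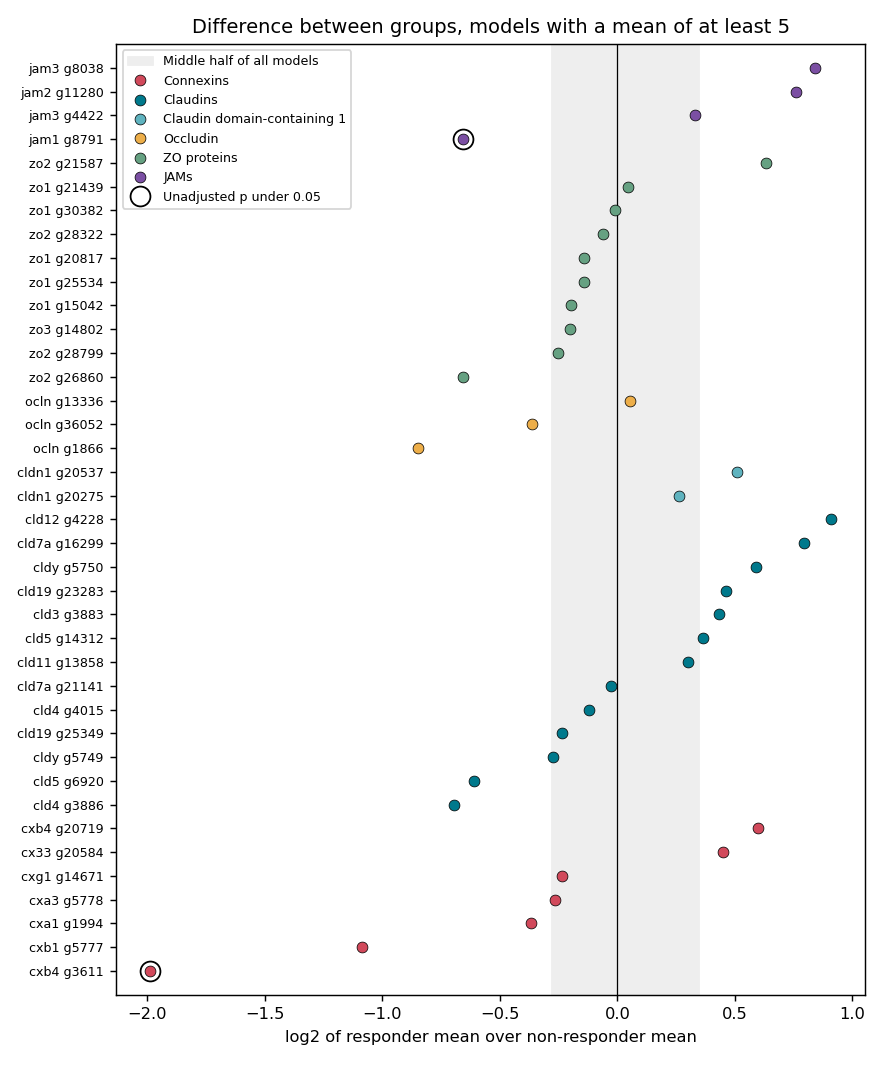
Log2 of the responder mean over the non-responder mean (x axis) for the 39 members with a mean of 5 or more, one per line and grouped by family; the grey band is the interquartile range of all models with such a mean, and rings mark an unadjusted p under 0.05. Points lie on both sides of 0, 17 above and 22 below, and the only rings are cxb4 (g3611) and jam1 (g8791).

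Across families the differences had no common direction. The 39 members with a mean of 5 or more had a median log2 of -0.061 (interquartile range -0.27 to 0.44), with 17 above and 22 below a ratio of 1, against 0.0066 for all models with such a mean. Rescaling both groups to equal sums adds 0.11 to every log2, which turns the members' median to 0.051 and that of all models to 0.12. None of the 27 members with a mean of 20 or more differed by more than 2-fold, against 7.22% of all such models. With a minimum of 5, cxb4 (g3611) and cxb1 (g5777) differed by more than 2-fold. At that minimum 94.9% of the 39 members lay within 2-fold, against 89.4% of all models. A difference within 1.5-fold was found for 64.1% of the 39 members and 74.6% of all models with a mean of 5 or more. Of these 39 members, 28 shared a name with another: 11 names had more than 1 such model, and 8 of them had models on both sides of a ratio of 1. A shared name reflects only a best protein match of the same name. Whether such models are split pieces of a transcript, duplicate genes or other related genes was not tested. Whether reads were divided between near-identical copies was not tested either.

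A wider list of junction-related genes gave no call either. This list, matched to 36 of 39 listed genes and 128 models, holds tricellulin and its partners, plaque proteins, polarity complexes, pannexins and kinases that act on junctions. The adjusted threshold was passed by 0 of its 112 models with a p in the authors' deposited table, and 3 had an unadjusted p under 0.05 (2.68%), all higher in responders, against 3.67% of all models with a p (2.07% higher). The polarity kinase PRKCZ (kpcz, g15826) had 2.98 and 18.2 scaled counts in this 471-base model (log2 2.61, p = 0.0030, adjusted p = 0.432 in the authors' DESeq comparison over all genes), and its other model, g26931, had 3.99 and 2.93 (log2 -0.45). The plaque protein CGNL1 (cgnl1, g12997) had 19.7 and 61.1 (log2 1.63, p = 0.0279, adjusted p = 1 in the authors' deposited table). Its longer and more abundant model, g2868, had 96.9 and 126.8 (log2 0.39, p = 0.267 in the authors' deposited table). AMOT (amot, g20914), which binds the polarity protein PATJ, had 42.7 and 80.6 (log2 0.92, p = 0.0352, adjusted p = 1 in the authors' deposited table). Over 58 models with a mean of 5 or more the median log2 was -0.13, with 25 above and 33 below a ratio of 1, and -0.020 with equal sums.

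Marker lists of cell types in an ovary moved beside these values, and their part in the differences was not tested. Oocyte markers summed to 670905 scaled counts across non-responders against 448535 across responders, with 16 of 17 models below a ratio of 1 (median log2 -0.39). An unadjusted p under 0.05 in the authors' deposited table was given to 3 of the 17 (17.6%), all lower in responders. The share was 3.67% of all models with a p, and 0 oocyte models passed the adjusted threshold. Endothelial markers summed to 224 and 148, with 4 of 7 models of sufficient mean below (median log2 -0.29), and 1 of their 11 models, of ESAM, was at 0. The VE-cadherin model cadh5 (g17569) accounted for most of the gap between these sums, with 95.4 and 37.4 (log2 -1.35, p = 0.00072, adjusted p = 0.195 in the authors' deposited table); without it the endothelial sums were 129 and 110. Claudin-5, the endothelial claudin of mammals, named here after its values were seen, had 14.8 and 19.1 in g14312 and 14.01 and 9.17 in g6920. Epithelial markers summed to 12865 and 10394 (median log2 -0.097), of which E-cadherin (cadh1, g3555) held 10470 and 7987, with ELF3 at 0 in both groups; without E-cadherin g3555 the sums were 2395 and 2407. Median log2 values were 0.29 for granulosa, 1.21 for theca and interstitial, -0.042 for erythrocyte, 0.50 for leukocyte and 0.11 for smooth muscle markers. The sums of these last lists went from 217 to 257, 519 to 1105, 1648 to 1814, 84.2 to 112 and 539.8 to 546 scaled counts. The theca and interstitial list was matched to only 2 of its 4 listed genes, without STAR and INSL3. Its CYP17A1 models g10692, g22995 and g38561 had log2 values of 1.33, 1.13 and 1.29, and CYP11A1 (g4682) had 0.36. Their p-values in the authors' deposited table were 0.0613, 0.0826, 0.330 and 0.358, and none passed the adjusted threshold. The erythrocyte sum turned on the 144-base beta-globin model hbbc (g34146), at 41.9 and 412.5 (p = 0.490 in the authors' deposited table). Without it, 7 of 7 erythrocyte models lay below a ratio of 1, and they summed to 1606 and 1402. The granulosa sum turned likewise without FOXL2 (foxl2, g429), from 74.5 to 65.4, and the smooth muscle sums were 371 and 469.5 without CNN1 (cnn1, g14833).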

How the data were processed

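Ovary mRNA libraries of 6 eels were prepared with an Illumina kit from total RNA, per the labels' protocols. The authors deposited 1 table of gene models with a signal per condition (mean scaled counts, named base means per the file headers), a fold that is the ratio of these means, and a p-value with its adjustment. The aligner, counter and genome build, and which version of DESeq was run, are not given in the sources at hand. The strand is unknown, and depth per library was not worked out here. The overall mean equals 0.33 of A plus 0.67 of B in every row (largest deviation 3.5e-10), so A was read as the 2 non-responders and B as the 4 responders. Another 6 columns hold values per library under names found in no label, and were not used; hence no count test, SD or fit without single animals was run. Deposited similarity to the best protein match, as a fraction per the file headers, had a median of 0.703 over members and 0.701 over all models with a match.

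The log2 of the condition means was computed, undefined where a group is listed at 0, with Python 3.11.15, pandas 2.3.3 and numpy 2.4.6. Levels between genes were compared per 1000 bases of longest transcript, which is unreliable for short pieces. Adjusted p-values under 0.05 over all models count as passing. Medians use models with a mean of 5 or more. The adjustment step was tested on simulated data. Named members are those with a p under 0.05, the 6 with the highest mean and the 2 with the smallest p in each family, and the 3 highest listed at 0 in 1 group, with the other junction genes that had a p under 0.05. Further models of a named gene, the model cx32, models listed at 0, members of identifier runs and single marker genes were named after their values were seen, as were the marker sums without 1 model. The members and lists were chosen with earlier results of these data known. Gene names are those of the deposited table; 0 of its identifiers matched the RefSeq gene table of assembly fAngAng1.pri, and no coordinates or sequences are given.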

Additional observations from a re-analysis of the deposited data

How the results depend on the processing

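The count of members past the adjusted threshold stayed at 0 with the p-values re-adjusted over models with a mean of 20 or more (smallest re-adjusted p of a member 0.736), with members chosen by name, and among members with a mean of 50 or more. The count at an unadjusted p under 0.05 was 3, and 1 under either minimum, since cxb4 (g3611) and cld17 (g18090) have means under 20. After rescaling to equal group sums, median log2 values were 0.051 for all members, -0.15 for connexins, 0.41 for claudins, -0.030 for occludin, ZO and JAM, and -0.020 for the other junction genes; among the 31 named models with a log2, only cld7a (g21141) then changed sign, to 0.085. With no minimum the median was -0.026 for claudins and 0.018 for occludin, ZO and JAM. With models summed per name it was 0.033 for claudins. A minimum of 20 and pseudocounts of 1 or 10 moved none of the 5 medians by more than 0.1. Fits that leave out single animals, and edgeR fits, were not run because values per library were not used. A paired analysis did not apply, because responders and non-responders were different eels. With 2 non-responders behind 1 mean, and no spread between animals computed here, a p that misses the threshold does not show that the groups were alike.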

Other observations

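Members stood under consecutive identifiers in the deposited table in 10 runs, each within 1 family, and whether consecutive models lie side by side in the genome was not analysed here. In 6 of the runs every model had a mean under 5. The other 4 each joined models of unequal level. The run from g5747 to g5751 holds 5 claudin models: cld6 and cld4 at 0 in both groups, the dominant cldy (g5749) at a mean of 38740 scaled counts, the second cldy (g5750) at 226, and a further cld4 (g5751) at 0.19. The connexin pair cxb1 and cxa3 (g5777 and g5778) had means of 5.17 and 137, the cld3 pair (g3883 and g3884) lay at 23.3 and 0.86, and the pair cx33 and cx32 (g20584 and g20585) had 147 and 1.10.

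A mean of 0 in 1 group was listed for 17 of the 111 members, 11 in non-responders and 6 in responders. The mean in the other group was at most 4.88 and 3.30 scaled counts. Of all 45974 models, 3616 were listed at 0 only in non-responders and 1052 only in responders. The responder mean averages 4 libraries and the non-responder mean 2.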
